A study of Mus musculus with 8 samples.

Results

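The 37 genes of the mouse mitochondrial genome were followed in bone marrow B cells after ovariectomy (OVX) or sham surgery (Sham). They were taken as all rows of the deposited count table whose Ensembl identifier carries a symbol beginning with mt-, 37 of 54532 rows, and comprise 13 protein-coding, 2 ribosomal RNA and 22 transfer RNA genes. The RNA-seq set holds 3 libraries per group. The B cells had been taken from dissected bone and purified with magnetic beads. Removal of the ovaries served as a surgical model of estrogen loss, and Sham mice were operated on without it. For these libraries the labels give the cell type, the treatment and a replicate number, and neither strain, age nor time after surgery. They do not say that each library came from a separate animal, so the spread between libraries may be technical in part.

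Mitochondria keep a small circular genome that encodes subunits of 4 respiratory chain complexes together with the ribosomal and transfer RNAs needed to translate them. Both strands are transcribed as long precursors, and the excision of transfer RNAs that lie between the other genes frees most of the mature messengers. Most genes are read from the heavy-strand promoter, whereas mt-Nd6 and 8 transfer RNAs are encoded on the opposite strand. All other subunits, and every protein that transcribes, processes or translates mitochondrial RNA, come from nuclear genes. In developing B cells respiration supplies part of the energy used for growth and division.

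The libraries held 23838775 to 33136701 counted reads, and 15305 genes had enough reads to be tested. The B cell identity of the libraries was evident from Cd79a, a part of the B cell receptor complex, with 38042 to 58684 reads, whereas the T cell gene Cd3e had 3 to 33 reads. No gene was called, for which a fold of 1.6 or more and an adjusted p under 0.05 were required, and the lowest p that edgeR gave after Benjamini-Hochberg adjustment of its quasi-likelihood test was 0.811. Sham replicate 3 stood apart in neutrophil transcripts. Its 18 neutrophil markers, none of them at 0 reads over the 6 libraries, summed to 0.980% of reads, and all 18 were highest there. The sum was 0.261% and 0.359% in the other Sham libraries and 0.114% to 0.424% in OVX. Sham replicate 2 stood apart in mature B cell transcripts, with 6 of 6 markers highest and a sum of 0.265%, against 0.106% to 0.144% in the other 5 libraries. In bulk RNA a smaller number of cells of one type and less RNA per cell cannot be told apart.

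Mitochondrial RNA made up a small and similar share of both groups. The 37 genes took 1.35%, 1.56% and 1.23% of all reads in Sham replicates 1, 2 and 3. In OVX replicates 1, 2 and 3 they took 1.52%, 1.24% and 1.28%. The highest and the lowest library were both Sham, so the OVX range lay inside the Sham range. The means were 1.35% ± 0.150 in OVX and 1.38% ± 0.166 in Sham (mean ± SD, 3 libraries each), and the difference was smaller than the spread within either group. Each share rests on 303838 to 432050 mitochondrial reads, and its 95% Wilson interval reaches at most 0.00484 percentage points to either side, which covers counting error only. The library with the most neutrophil transcripts, Sham replicate 3, had the lowest mitochondrial share. However, OVX replicate 2, with the lowest neutrophil sum (0.114%), had 1.24%, and OVX replicate 1, with a neutrophil sum of 0.424%, had 1.52%. The library with the most mature B cell transcripts, Sham replicate 2, had the highest share. It was also highest in the sum of monocyte and macrophage markers (0.275%) and lowest in that of pro-B and pre-B markers (0.147%). Without Sham replicate 3 the log2 difference in share, OVX minus Sham, was -0.11, and without Sham replicate 2 it was 0.06, beside -0.03 over all libraries. The part of any of these cell types in the share was not tested further.

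**Figure D1:**
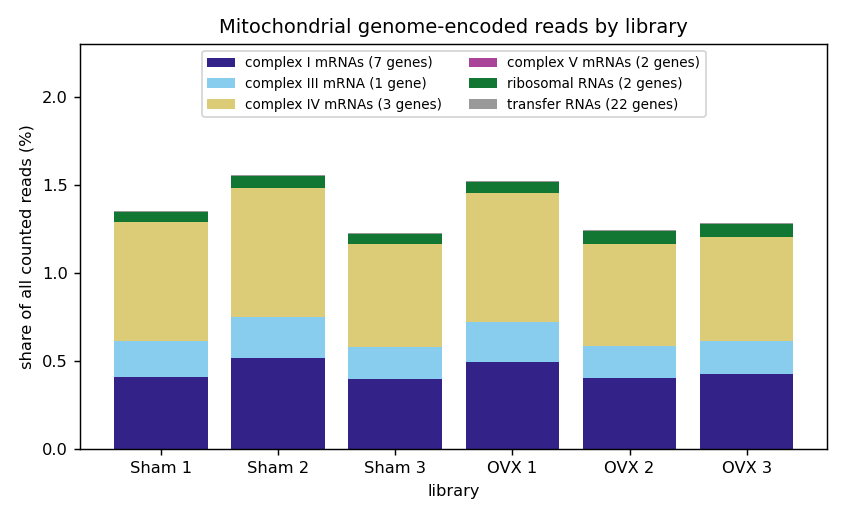
Share of all counted reads (%) taken by the mitochondrial genes in each of the 6 libraries, stacked by the complex or class the genes belong to. Total height runs from 1.23% in Sham replicate 3 to 1.56% in Sham replicate 2, and most of each bar is complex IV and complex I messenger RNA.

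Most of these reads were messenger RNA. The 13 protein-coding genes took 94.5% ± 1.10 of mitochondrial reads in OVX and 95.3% ± 0.279 in Sham (mean ± SD, 3 libraries each). The ribosomal RNAs took 5.15% ± 1.05 in OVX and 4.44% ± 0.270 in Sham. The 22 transfer RNA rows took 0.338% ± 0.0592 in OVX and 0.299% ± 0.0431 in Sham, and for all 3 classes the groups overlapped. The labels name a TruSeq RNA kit and do not say how ribosomal RNA was handled, so these class shares describe the libraries and not the cells. Within the messenger RNA, complex IV members held 49.7% ± 0.667 of reads in OVX and 50.7% ± 1.49 in Sham, nearly all from mt-Co1. Complex I members held 34.6% ± 0.686 in OVX and 33.5% ± 1.65 in Sham. Complex III, represented by mt-Cytb, held 15.6% ± 0.0393 in OVX and 15.7% ± 0.196 in Sham. The 2 complex V members held 0.136% ± 0.0150 in OVX and 0.124% ± 0.00747 in Sham. For each complex the OVX and Sham libraries overlapped.

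Counted levels differed widely among the protein-coding genes, and a run of neighbouring genes was low. Per length, in CPM (reads of a gene relative to the size of its library, with edgeR's TMM scaling) per kb, mt-Co1 was the highest member with 4175 ± 436 (mean ± SD, 6 libraries), followed by mt-Cytb with 1767 ± 185 and mt-Nd1 with 1378 ± 147. The remaining protein-coding members outside one stretch of the genome, mt-Nd5, mt-Nd2, mt-Nd6 and mt-Nd4, lay between 509 and 718 CPM per kb. The 6 consecutive protein-coding genes from mt-Co2 to mt-Nd4l (MT, bases 7013 to 10173, GRCm38) lay between 2.76 and 23.5 CPM per kb. The lowest of the other 7 genes was thus 21.6 times higher than the highest of these 6, and the ratio of the medians was 50.3. Within one complex mt-Co1 exceeded mt-Co2 178-fold and mt-Co3 180-fold per length, and mt-Nd4 exceeded mt-Nd4l, with which it shares 7 bases, 96.2-fold. The 6 genes together carried 0.416% of the protein-coding mitochondrial reads. This grouping was made after the levels were seen and is a description.

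**Figure D2:**
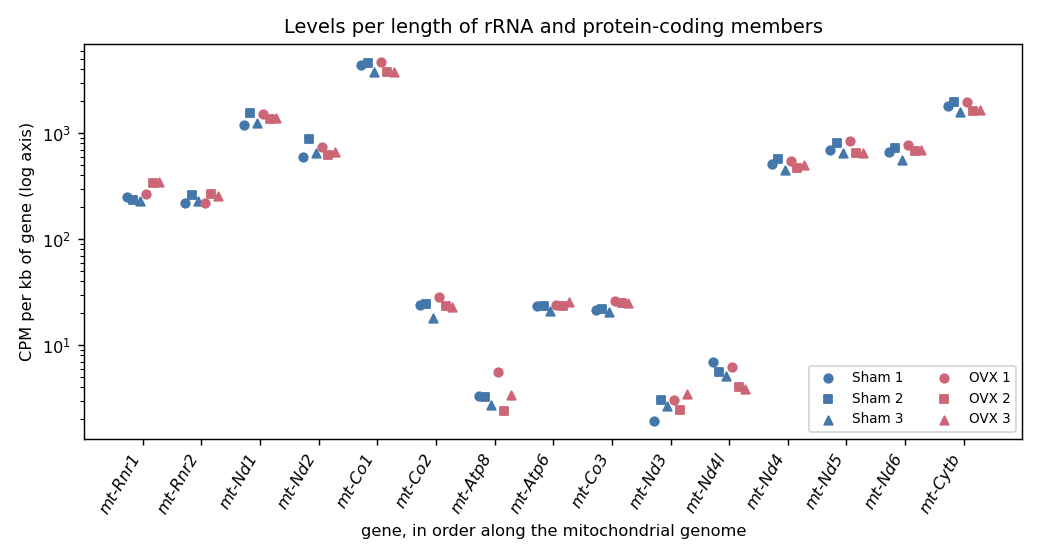
Level of each ribosomal RNA and protein-coding gene in CPM per kb of gene (log axis), in order along the mitochondrial genome, with 1 point per library. The 6 genes from mt-Co2 to mt-Nd4l sit at or below 23.5 CPM per kb on average, and the other 7 protein-coding genes at 509 or above, in Sham and OVX alike.

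Rows taken as nuclear copies of this stretch also held reads, although no sequences were compared. Gm10925, which RefSeq lists as a pseudogene of 681 bases on chromosome 1 (bases 24613971 to 24614651, GRCm38.p6) with mt-Atp6 among its synonyms, has the same length as mt-Atp6. It was counted with 610, 732 and 641 reads in Sham and 731, 645 and 915 in OVX. The gene mt-Atp6 itself was counted with 377, 456 and 356 reads in Sham and 404, 450 and 580 in OVX, fewer than Gm10925 in all 6 libraries. A set of 6 predicted genes taken as such copies, of which the tables used here describe Gm10925 alone, summed to 2116 to 3468 reads per library, against 1141 to 1850 for the 6 mitochondrial genes. Of the 3468 reads in Sham replicate 2, Gm29216 held 1088, against 283 to 505 in each other library. Among these 6 rows only Gm28437 separated the groups, with 17.6 to 20.1 CPM in Sham and 20.4 to 22.4 CPM in OVX, as did 8.44% of all genes tested. How reads that match several places were treated is not given in the sources used here. The part of such reads in the low counts of the 6 mitochondrial genes was not tested. The values of mt-Co2, mt-Atp8, mt-Atp6, mt-Co3, mt-Nd3 and mt-Nd4l are therefore uncertain. With the reads of mt-Atp6 and Gm10925 summed, an alternative added with the values in view, its log2 fold change was 0.07 in place of 0.11.

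None of the 23 members with enough reads was called, and 0% of the 15305 genes tested were in edgeR. Members with an unadjusted p under 0.05 numbered 3, namely mt-Rnr1 and mt-Co3, higher in OVX, and mt-Tl1, lower in OVX. Of all genes tested 3.75% had such a p, 1.47% higher and 2.28% lower. DESeq2 and limma-voom also called none, and each had 2 members below that unadjusted level, with 755 of 27416 and 594 of 15305 genes in all beside 574 of 15305 in edgeR. Every OVX level exceeded every Sham level for 2 members, mt-Rnr1 and mt-Co3, and none showed the opposite order, where the groups did not overlap for 8.44% of all genes, 4.33% above and 4.12% below. Of the 23 members 14 were higher in OVX and 9 lower, and their median log2 fold change was 0.10, beside -0.01 and 48.2% higher over all genes. The 13 protein-coding genes, all of them tested, were 7 higher and 6 lower, with log2 fold changes from -0.33 to 0.28 around a median of 0.10. The number higher ran from 6 without OVX replicate 1 to 12 without Sham replicate 2. This median was -0.07 without OVX replicate 1 and 0.02 without Sham replicate 1. It was 0.03 without Sham replicate 3, and 0.02 with scaling on 12 B cell genes, which moved the median of all genes by -0.08. Of the 6 genes from mt-Co2 to mt-Nd4l, whose values are uncertain, 5 were higher in OVX, with a median of 0.20. The other 7, with 99.6% of the protein-coding mitochondrial reads, were 2 higher and 5 lower, with a median of -0.02.

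**Figure D3:**
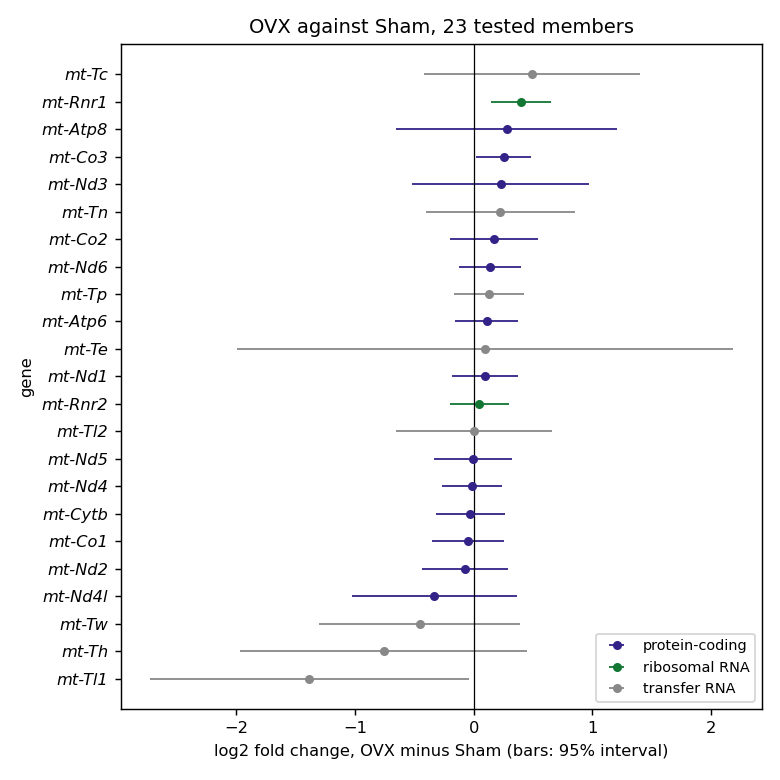
Log2 fold change of OVX minus Sham with its 95% interval (bars) for the 23 members tested, from edgeR's quasi-likelihood fit, coloured by class of gene. The intervals of mt-Rnr1, mt-Co3 and mt-Tl1 do not reach 0 before adjustment, and those of the other members cross it.

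Complex I, the NADH dehydrogenase, receives 7 subunits from the mitochondrial genome. The messenger of mt-Nd1, a core membrane subunit, stood at 1147, 1492 and 1186 CPM in Sham and 1464, 1295 and 1330 CPM in OVX. That of mt-Nd5, one of the proton-pumping subunits, stood at 1276, 1481 and 1178 CPM in Sham and 1549, 1176 and 1193 CPM in OVX. In both genes the highest level was in Sham replicate 2 or OVX replicate 1, and the groups overlapped. For mt-Nd2, another pumping subunit, the levels were 624, 917 and 672 CPM in Sham and 769, 647 and 688 CPM in OVX. For mt-Nd4, the third of the pumping subunits, they were 708, 786 and 622 CPM in Sham and 753, 643 and 697 CPM in OVX. The OVX values of both fell within the Sham range. The log2 fold changes of these 4 genes ran from -0.07 for mt-Nd2 to 0.10 for mt-Nd1, each smaller than its standard error of 0.11 to 0.15. The 95% interval of mt-Nd4 was -0.27 to 0.24, so that changes of more than about that size in either direction lay outside it. For mt-Nd1 it was -0.18 to 0.38. The 2 short neighbours were counted at far lower levels, mt-Nd3 with 16 to 40 reads and mt-Nd4l with 34 to 49 reads per library. Their log2 fold changes were 0.23 (standard error 0.32) and -0.33 (standard error 0.30).

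The single protein-coding gene on the other strand is mt-Nd6, also a complex I subunit. Its levels were 347, 379 and 290 CPM in Sham and 402, 351 and 363 CPM in OVX. The groups overlapped, with the lowest value in Sham replicate 3 and the highest in OVX replicate 1. The log2 fold change was 0.14 (standard error 0.11), with a 95% interval from -0.12 to 0.40. Relative to mt-Nd5, its neighbour on the opposite strand with which it shares 14 bases, it was counted at 0.272, 0.256 and 0.246 in Sham and 0.260, 0.299 and 0.305 in OVX. This ratio does not depend on how libraries are scaled, and its groups overlapped (p = 0.2 in a two-sided exact permutation test, 0.333 adjusted over 5 ratios). Whether the counting used strand is not stated, so reads of mt-Nd6 cannot be told from antisense reads.

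Cytochrome b, encoded by mt-Cytb, is the mitochondrial subunit of complex III. It stood at 2058, 2272 and 1797 CPM in Sham and 2271, 1853 and 1880 CPM in OVX. The Sham libraries again spanned the OVX ones, and the log2 fold change was -0.03 with a 95% interval from -0.32 to 0.26.

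Complex IV, cytochrome c oxidase, has its catalytic core in the 3 mitochondrial subunits. The largest, mt-Co1, had the third highest total count of all 54532 rows. Its levels were 6739, 7131 and 5803 CPM in Sham and 7265, 5886 and 5880 CPM in OVX. The groups overlapped, at 6558 ± 682 CPM in Sham and 6344 ± 798 in OVX (mean ± SD, 3 libraries each). The log2 fold change of mt-Co1 was -0.05, with a 95% interval from -0.35 to 0.26. It was 0.01 without Sham replicate 2, and mt-Cytb, mt-Nd4 and mt-Nd5 likewise had values above 0 without that library. For mt-Co2, which carries the copper site that receives electrons from cytochrome c, the counts were 385, 475 and 310 reads in Sham and 476, 451 and 523 in OVX. The lowest of its levels was in Sham replicate 3, and the log2 fold change was 0.17 (standard error 0.16).

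The third core subunit, mt-Co3 (MT, bases 8607 to 9390, GRCm38), was among the members with separate groups. It was counted with 397, 484 and 400 reads in Sham and 500, 553 and 646 in OVX, which is 16.7, 17.0 and 16.1 CPM in Sham and 20.3, 19.5 and 19.5 CPM in OVX. Each OVX library lay above each Sham library, and the means were 19.8 ± 0.478 and 16.6 ± 0.489 CPM (mean ± SD, 3 libraries each). The log2 fold change was 0.25 (standard error 0.10), a 1.19-fold difference. The adjusted p in edgeR was 0.811. The two-sided exact permutation test gave p = 0.1, the smallest that 3 libraries against 3 allow. In 7 of 16 alternative fits its unadjusted p stayed under 0.05, and the log2 fold change ran from 0.17 to 0.27. As a share of all mitochondrial reads mt-Co3 also separated the groups, with 0.112% to 0.132% in Sham and 0.134% to 0.154% in OVX. The gene lies among the 6 whose reads may be divided with nuclear copies, so this value is uncertain.

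Complex V, the ATP synthase, takes mt-Atp6 and mt-Atp8 into its membrane part, and the genes share 43 bases. The levels of mt-Atp6 were 15.9, 16.0 and 14.3 CPM in Sham and 16.4, 15.9 and 17.5 CPM in OVX. They overlapped, with a log2 fold change of 0.11 (standard error 0.11). For mt-Atp8 there were only 14 to 28 reads per library, and the log2 fold change of 0.28 (standard error 0.40) was -0.09 without OVX replicate 1, which held the 28 reads.

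The 2 ribosomal RNAs, which form the cores of the mitochondrial ribosome's subunits, differed from each other. The small-subunit RNA mt-Rnr1 (MT, bases 70 to 1024, GRCm38) was counted with 5724, 6378 and 5479 reads in Sham and 6252, 9095 and 10874 in OVX. In CPM this was 241, 224 and 220.2 in Sham and 254, 321 and 329 in OVX. The groups did not overlap and OVX was the higher, with OVX replicate 1 close to Sham and OVX replicates 2 and 3 well above it. How ribosomal RNA was handled is not given, so these levels describe the libraries and not the cells. The means were 301 ± 40.8 CPM in OVX and 229 ± 11.2 in Sham (mean ± SD, 3 libraries each). The log2 fold change was 0.40 (standard error 0.11, 95% interval 0.14 to 0.65), a 1.32-fold difference, and the unadjusted p of 0.00726 in edgeR ranked 21 of the 15305 genes tested. After adjustment over all genes the edgeR p was 0.811, so mt-Rnr1 was not called, and over 16 alternative fits the adjusted p ran from 0.273 to 1.00. Its unadjusted p was under 0.05 in all 16, among them each fit that left out 1 library, with log2 fold changes from 0.31 to 0.51. Without Sham replicate 3 the log2 fold change was 0.36. The neutrophil markers were lowest in OVX replicates 2 and 3, where mt-Rnr1 was highest, with sums of 0.114% and 0.123% of reads, and highest in Sham replicate 3, where mt-Rnr1 was lowest. OVX replicate 1 went the other way. Its neutrophil sum of 0.424% was above that of Sham replicates 1 and 2 (0.261% and 0.359%), and its mt-Rnr1 level was above every Sham library. Other marker sums also went partly with mt-Rnr1. The B cell sum was highest in OVX replicates 2 and 3 and lowest in Sham replicate 3. In OVX replicate 1, however, it was below Sham replicates 1 and 2. The pro-B and pre-B sum was 0.266% and 0.285% in OVX replicates 2 and 3 and lowest in Sham replicates 2 and 3. Sham replicate 1, however, had 0.268%. With scaling on B cell genes the log2 fold change of mt-Rnr1 was 0.31. The part of neutrophil transcripts in the mt-Rnr1 level was not tested beyond leaving out Sham replicate 3. The parts of the other cell types were not tested further.

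The large-subunit RNA mt-Rnr2 (MT, bases 1094 to 2675, GRCm38) did not show this pattern. Its levels were 351, 417 and 359 CPM in Sham and 344, 419.7 and 400.5 CPM in OVX. The lowest and the highest value were both OVX, and the log2 fold change was 0.05 with a 95% interval from -0.20 to 0.29. Per length the levels of the ribosomal RNAs were close, 241 ± 21.8 CPM per kb for mt-Rnr2 and 277 ± 50.2 for mt-Rnr1 (mean ± SD, 6 libraries), and mt-Co1 was 17.3 times above mt-Rnr2.

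The ratio of mt-Rnr2 to mt-Rnr1 within a library separated the groups. It was 1.45, 1.86 and 1.63 in Sham and 1.35, 1.31 and 1.22 in OVX, lower in each OVX library than in any Sham library. The mean was 1.29 ± 0.0691 in OVX and 1.65 ± 0.203 in Sham (mean ± SD, 3 libraries each), a log2 difference of -0.34. The two-sided exact permutation test gave p = 0.1, the smallest possible here, and 0.333 after adjustment over the 5 ratios examined. Leaving out 1 library gave -0.43 to -0.25. The ratio, too, describes the libraries and not the cells, as the handling of ribosomal RNA is not given. Measured against all mitochondrial reads, however, mt-Rnr1 overlapped between groups, with 1.48% to 1.80% in Sham and 1.68% to 2.56% in OVX. The mt-Rnr2 to mt-Co1 ratio, ribosomal RNA against messenger, was 0.0521, 0.0585 and 0.0619 in Sham and 0.0474, 0.0713 and 0.0681 in OVX, so that the groups overlapped (p = 0.6 in a two-sided exact permutation test).

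**Figure D4:**
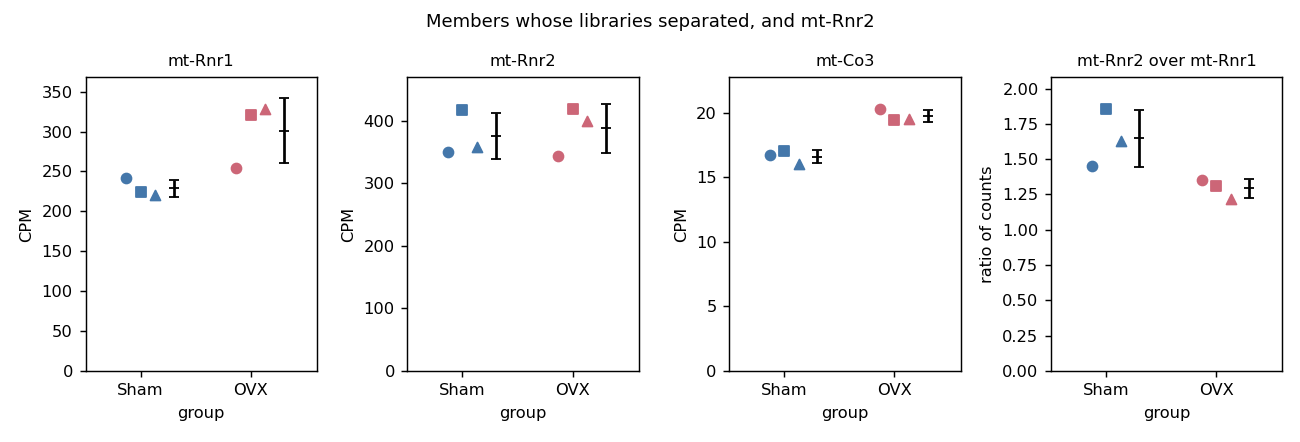
Levels in CPM of mt-Rnr1, mt-Rnr2 and mt-Co3 and the ratio of mt-Rnr2 to mt-Rnr1 counts, with 1 point per library and the mean ± SD of 3 libraries beside them (axes start at 0). OVX and Sham points do not overlap for mt-Rnr1, mt-Co3 and the ratio, and they overlap for mt-Rnr2.

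The other ratios within overlapping gene pairs were less precise. The mt-Atp8 to mt-Atp6 ratio was 0.0393 to 0.0424 in Sham and 0.0311 to 0.0693 in OVX (two-sided exact permutation test, p = 0.9). The mt-Nd4l to mt-Nd4 ratio was 0.00210 to 0.00292 in Sham and 0.00165 to 0.00243 in OVX (two-sided exact permutation test, p = 0.2). Both pairs overlapped between groups.

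The ordering of the libraries was shared by many of the messengers. Of the 13 protein-coding genes 6 were highest in OVX replicate 1, 4 in Sham replicate 2, 2 in OVX replicate 3 and 1 in Sham replicate 1, and 7 were lowest in Sham replicate 3. Both ribosomal RNAs had their highest levels in OVX replicate 2 or 3 instead. The coefficient of variation over the 6 libraries was 8.90% for mt-Nd4 to 15.1% for mt-Nd2 among the 7 well-counted messengers. It was 9.01% for mt-Rnr2 and 18.1% for mt-Rnr1.

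Transfer RNAs are short, and few reads fell on them. Of the 22 rows 8 had enough reads to be tested and 14 did not. Of the latter 3 (mt-Td, mt-Tk and mt-Tg, for aspartate, lysine and glycine) had 0 reads in all libraries, which allows a share of up to 1.26e-05% of reads in the shallowest library. The proline transfer RNA row mt-Tp had the most, with 449, 529 and 405 reads in Sham and 543, 517 and 611 in OVX. Its level per length, 280 ± 28.1 CPM per kb (mean ± SD, 6 libraries), was close to that of mt-Rnr1, and its log2 fold change was 0.13 (standard error 0.13). The rows mt-Tn and mt-Tc, for asparagine and cysteine, flank the 32 bases that hold the light-strand origin of replication. They were counted with 177, 435 and 262 and with 89, 214 and 175 reads in Sham. In OVX they had 269, 427 and 427 and 116, 341 and 298 reads. For both rows Sham replicate 1 was the lowest library and the groups overlapped. Their log2 fold changes were 0.22 (standard error 0.27) and 0.49 (standard error 0.39). Without Sham replicate 1 that of mt-Tn was 0.00 and without Sham replicate 2 it was 0.52. That of mt-Tc was 0.17 without OVX replicate 2 and 0.78 without OVX replicate 1. These 3 rows are encoded on the light strand, so their reads cannot be told from those of the heavy-strand precursor.

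The leucine transfer RNA row mt-Tl1 (MT, bases 2676 to 2750, GRCm38), directly after mt-Rnr2, had the lowest log2 fold change of all members. It had 14, 87 and 36 reads in Sham and 15, 22 and 19 in OVX. On the CPM scale the groups overlapped, with Sham replicate 1 at 0.590 CPM inside the OVX range of 0.575 to 0.776, and the Sham mean was set mainly by Sham replicate 2. The log2 fold change of -1.38 (standard error 0.57) had an adjusted p of 0.811 in edgeR. Without Sham replicate 2 it was -0.64, with an unadjusted edgeR p of 0.223. The other tested rows, mt-Tl2, mt-Tw, mt-Te and mt-Th, had 1 to 49 reads per library and log2 fold changes from -0.76 to 0.10, and for each the groups overlapped. The 14 rows that were not tested had at most 12 reads in a library.

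The nuclear genes of mitochondrial gene expression were next examined as a list of 68, all with enough reads. These were 9 transcription, 21 processing, 14 replication and 15 translation genes and 9 regulators. None was called, 31 were higher in OVX and 37 lower, and the median log2 fold change was -0.00 beside -0.01 over all genes. With scaling on B cell genes 15 were higher and 53 lower, and the median was -0.09, beside -0.09 over all genes. Among the transcription genes, Polrmt, the mitochondrial RNA polymerase, had 56.3 ± 1.35 CPM in OVX and 53.3 ± 1.93 in Sham (mean ± SD, 3 libraries each). Tfam, which packages the mitochondrial genome and opens its promoters, had 77.4 ± 6.49 CPM in OVX and 77.6 ± 2.77 in Sham. The initiation factor Tfb2m had 28.3 ± 1.14 and 29.2 ± 1.59 CPM, and the elongation factor Tefm 6.24 ± 0.347 and 6.28 ± 1.09 CPM. Differences for these 4 genes were at most 0.08 in log2 units, and the 95% interval of Tfam was -0.19 to 0.18. None of the 9 transcription genes separated the groups.

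Of the 21 RNA processing genes, 2 (9.52%) separated the groups, close to the 8.44% of all genes, and they are given as a description. Lrpprc, which with its partner Slirp stabilises mitochondrial messengers, had 78.6 ± 2.73 CPM in OVX and 88.1 ± 1.56 in Sham (mean ± SD, 3 libraries each), with every OVX library below every Sham library. Its log2 fold change was -0.16 with a standard error of 0.06 (0.811 as adjusted p in edgeR), and its unadjusted p was under 0.05 in 10 of 16 alternative fits. Slirp itself had 1.56 ± 0.218 CPM in OVX and 1.80 ± 0.414 in Sham, and its groups overlapped. Fastkd5, a processing factor for messengers without flanking transfer RNAs, was the other, with 8.52 ± 0.343 CPM in OVX and 7.38 ± 0.758 in Sham. Its log2 fold change was 0.21 (standard error 0.15). The transfer RNA end-processing genes Trmt10c and Elac2 had log2 fold changes of -0.05 and -0.07, and their groups overlapped. Among replication genes Polg, the mitochondrial DNA polymerase, and Twnk, the helicase, both had 0.06. The 14 replication genes had a median of -0.03 and the 15 translation genes one of 0.05.

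Among 9 regulators of mitochondrial genes, Nrf1, a transcription factor for many nuclear respiratory genes, had 102 ± 3.98 CPM in OVX and 91.1 ± 3.70 in Sham (mean ± SD, 3 libraries each). Each OVX library lay above each Sham library, at a log2 fold change of 0.16 with a standard error of 0.06 (0.811 as adjusted p in edgeR), and its unadjusted p was under 0.05 in 8 of 16 alternative fits. The coactivator Ppargc1b had 3.75 ± 0.298 CPM in OVX and 4.37 ± 1.76 in Sham. Its relative Ppargc1a had the highest log2 fold change of the 68 genes, 0.30 (standard error 0.22), and Myc the lowest, -0.30 (standard error 0.16). Over the whole list 4 of 68 genes (5.88%) separated the groups, 3 above and 1 below, a smaller share than the 8.44% of all genes. Those with an unadjusted edgeR p under 0.05 were 2 of 68, beside 3.75% of all genes. Without Sham replicate 1 they numbered 9, in a fit where 2698 of all 16051 genes tested had such a p.

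The proteins that share complexes with the mitochondrial products were described by count. Of 74 nuclear oxidative phosphorylation subunits tested, 66 were higher in OVX and 8 lower, where 48.2% of all genes were higher. Their median log2 fold change was 0.10, and none was called. The groups did not overlap for 3 of the 74 (4.05%), a smaller share than the 8.44% of all genes. The 4 with an unadjusted edgeR p under 0.05, beside 3.75% of all genes, were Cox6c, Ndufa11, Ndufb9 and Atp5k. Such subunits numbered 23 without Sham replicate 1, where 2698 of 16051 genes in all had such a p. Without OVX replicate 1 they numbered 9, beside 988 of 15977 genes in all. There was 1 with the replicate block, with scaling on B cell genes or without Sham replicate 2, OVX replicate 2 or OVX replicate 3. In these fits 206 to 594 genes in all had such a p. The highest value was 0.43 for Atp5k and the lowest -0.06 for Atp5g1. The number higher was 45 with scaling on B cell genes and 46 without Sham replicate 2, with medians of 0.01 and 0.02. Over all genes the medians were then -0.09 and -0.0024. The number higher was 70 without Sham replicate 1 and 68 without OVX replicate 1, with medians of 0.17 and 0.12. Here the medians of all genes were -0.02 and -0.01. By complex the medians of nuclear subunits were 0.10 for complex I, 0.09 for complex III, 0.12 for complex IV and 0.09 for complex V. For complex II, which has no mitochondrial-encoded member, the median was 0.02 over only 4 genes, 2 higher and 2 lower. Of 77 mitochondrial ribosomal proteins tested, 47 were higher and 30 lower, with a median of 0.03. The groups did not overlap for 2 of the 77 (2.60%), beside 8.44% of all genes. None of the 77 was called or had an unadjusted edgeR p under 0.05. Without Sham replicate 1, however, 9 had such a p, beside 2698 of 16051 genes in all. In that fit 63 of the ribosomal proteins were higher, with a median of 0.11. The median was -0.01 without Sham replicate 2 and -0.00 without OVX replicate 2. Mrps6, a small-subunit protein, was the highest with 0.38 (standard error 0.23), and Mrps18b the lowest with -0.21 (standard error 0.16). With scaling on B cell genes 25 of the 77 were higher, and the median was -0.05, beside -0.09 over all genes.

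**Figure D5:**
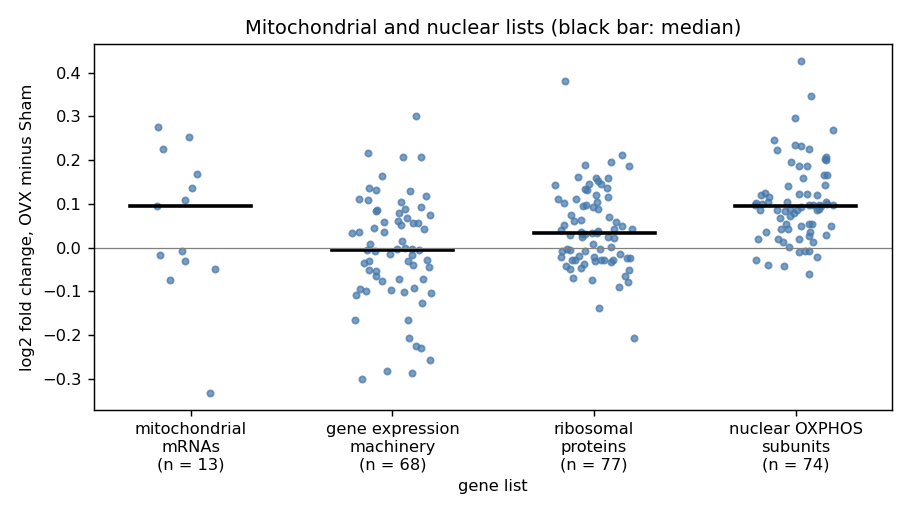
Log2 fold change of OVX minus Sham for each tested gene of the mitochondrial messengers and of 3 nuclear lists, with 1 point per gene and the median as a black bar. Medians are 0.10 for the 13 mitochondrial messengers and -0.00 for the 68 expression genes. They are 0.03 for the 77 ribosomal proteins and 0.10 for the 74 nuclear subunits. The 7 messengers outside mt-Co2 to mt-Nd4l have a median of -0.02. The points of each list lie on both sides of 0.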

How the data were processed

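For the 6 RNA-seq libraries the deposited table holds raw read counts, which the authors made per Ensembl gene. The submitters' processing notes name CASAVA, Bowtie 0.12.2 and mm10. The counting tool, annotation, strand setting and handling of reads with several matches are not given in the sources used here. Labels name Trizol for the RNA, whereas the study's methods name RNA-Solv or RNeasy. The ChIP-seq libraries of the series were not used here. Symbols were found for 54409 of 54532 identifiers, and positions and lengths come from RefSeq (GRCm38.p6).

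The tools were edgeR 4.0.16, DESeq2 1.42.0 and limma 3.58.1 under R 4.3.3. Genes were kept by filterByExpr, libraries scaled by TMM, and OVX compared with Sham by edgeR's quasi-likelihood test, adjusted over all genes. A standard error is the log2 fold change divided by the square root of F. A chi-square over genes found more than sampling noise between all 15 pairs of libraries. On simulated data the test recovered 34, 91 and 156 of 200 genes changed 1.6-, 2- and 4-fold among 15305. In these runs it also made 5, 9 and 10 wrong calls, and 0 where no gene was changed. Counts were drawn independently for each gene, so differences shared by many genes of a library, as in neutrophil transcripts, were not simulated. A call also needed an estimated fold of 1.6 or more, which limits recovery of genes changed 1.6-fold. Named by rule were all protein-coding and ribosomal RNA members, the tested transfer RNAs, and of the nuclear expression genes Tfam, Polrmt, Tfb2m, Tefm, Lrpprc, Slirp, Trmt10c, Elac2, Polg, Twnk and Ppargc1b. Zero counts are given against a floor of 3 counts. Members and lists were chosen with earlier results of these data known. The highest and lowest gene of each nuclear list is also named, and mt-Td, mt-Tk, mt-Tg, Fastkd5, Nrf1, Cox6c, Ndufa11 and Ndufb9 were named after their values were seen. Alternatives were other tests, scalings, filters, a replicate block and each library left out.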

Additional observations from a re-analysis of the deposited data

How the results depend on the processing

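No member and no gene was called in any of the 15 alternative fits listed for these comparisons, or without a fold threshold. The number of members at an unadjusted p under 0.05 was 3, against 1 with the replicate block and 2 with the B cell genes, no filter, DESeq2 or limma-voom. Without Sham replicates 1, 2 and 3 in turn it came to 2, 4 and 1, and to 1 without any one of the OVX libraries. Over all genes the number was 574, against 1269 when genes with low counts were kept and 206 with the replicate block. It ran from 233 without OVX replicate 2 to 2698 without Sham replicate 1, and was 360, 286, 988 and 411 without Sham replicates 2 and 3 and OVX replicates 1 and 3. With the B cell genes 62 such genes were higher and 532 lower, against 225 and 349, and with DESeq2 204 and 551. Whether same replicate numbers mark paired libraries was not decided. Deviations of same-numbered libraries from their group means correlated at -0.410, -0.189 and -0.279 across genes. With 3 libraries per group these deviations are not independent of each other, so pairing cannot be read from them. The median of the protein-coding members was 0.10 with the replicate block, and -0.0728 to 0.14 when 1 library was left out. The log2 difference in mitochondrial share was -0.03, and -0.12 to 0.06 when 1 library was left out.

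Single members with values near 0 changed sign. mt-Tl2 went from 0.00 to -0.0184 by library size, -0.0108 by the upper quartile, -0.0797 with the B cell genes, -0.00162 without the filter, -0.0114 with the replicate block and -0.00581 with limma-voom. With the B cell genes mt-Rnr2 was -0.0421 and mt-Te -0.00753. When 1 library was left out, the values ran from -0.16 to 0.0138 for mt-Co1, -0.13 to 0.0510 for mt-Cytb, -0.18 to 0.11 for mt-Nd2, -0.11 to 0.0658 for mt-Nd4, -0.15 to 0.0869 for mt-Nd5, -0.0891 to 0.52 for mt-Atp8, -0.0119 to 0.13 for mt-Rnr2, -0.60 to 1.01 for mt-Te and -0.17 to 0.11 for mt-Tl2. Other members kept their sign with wide ranges: 0.02 to 0.22 for mt-Nd1, 0.03 to 0.22 for mt-Nd6, 0.04 to 0.24 for mt-Co2, 0.07 to 0.37 for mt-Nd3, -0.57 to -0.20 for mt-Nd4l, 0.05 to 0.14 for mt-Atp6, 0.03 to 0.18 for mt-Tp, -0.66 to -0.11 for mt-Tw and -1.10 to -0.32 for mt-Th, with the values nearest 0 of mt-Nd6, mt-Co2 and mt-Atp6 without Sham replicate 3 and those of mt-Nd1, mt-Nd3 and mt-Nd4l without Sham replicate 1. Those of mt-Tw and mt-Th were without Sham replicate 2 and that of mt-Tp without OVX replicate 1. The log2 difference of the mt-Rnr2 to mt-Co1 ratio then ran from -0.0130 to 0.28 and that of mt-Atp8 to mt-Atp6 from -0.23 to 0.35. The causes were not tested. Members under about 50 reads per library give intervals too wide to show changes of the size seen for mt-Rnr1. Intervals of some better-counted members also held its value of 0.40, among them mt-Tc (-0.42 to 1.40), mt-Tn (-0.40 to 0.85) and mt-Co2 (-0.20 to 0.54). Others, such as that of mt-Nd4 (-0.27 to 0.24), did not.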
